A study of Mus musculus with 8 samples.

Results

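The Myb family of transcription factors and the proteins named for working with c-Myb were examined in thymocytes of mice labelled as having or lacking c-Myb. The set held 6 genes of the 18193 that the platform annotation names by a single symbol: the family members Myb, Mybl1 and Mybl2, the Myb-binding protein gene Mybbp1a, and the coactivator genes Crebbp and Ep300. All of their 14 probe sets were taken, and 12 passed the limit on dim signal, a signal over 33.8, the median of all values, on 4 or more arrays. Of the 2 that did not, 1450481_at belongs to Mybl1 and 1459804_at to Crebbp. A gene or probe set is said to be called, or to have risen or fallen, where its limma adjusted p was under 0.05.

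c-Myb, the product of Myb, is a DNA-binding transcription factor of immature blood cells, and in the thymus it is known for roles in early T-cell development and in the survival of double-positive cells, the stage that carries both CD4 and CD8. A-Myb (Mybl1) is best known from male germ cells and germinal-centre B cells, and B-Myb (Mybl2) from dividing cells, where it joins the MuvB complex at mitotic genes. c-Myb recruits the related acetyltransferases CBP (Crebbp) and p300 (Ep300) through their KIX domain, and Mybbp1a is a nucleolar protein that was found by its binding to c-Myb.

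Each of the 8 one-colour Affymetrix arrays held RNA of a biological replicate from mice aged 4 to 5 weeks (pooling is not stated), 4 with the title Control and the genotype entry c-Myb sufficient, and 4 with the title Mutant and the entry c-Myb deficient. All mice were Tcra-/-, so that no alpha-beta T-cell receptor can form, and all carried Cd4-Cre, which acts in cells that have switched on Cd4. Cells were collected by their CD4 on magnetic columns. The source names contradict the titles: they list Mybf/f Cd4-Cre Tcra-/- for the arrays titled Control and Mybf/w Cd4-Cre Tcra-/- for those titled Mutant. Groups below are those of the titles, "labelled sufficient" and "labelled deficient", and every difference is deficient minus sufficient.

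Signals are linear intensities with the same 2% trimmed mean, 250, on every array, and array medians lay between 30.0 and 37.9. Xist, the RNA of the inactive X chromosome, was high on all 4 deficient arrays (4128.7 to 5735.5) and on sufficient replicate 1 (4358.5), and low on sufficient replicates 2 to 4 (23.4 to 36.7), so that the Xist level went with the group on 7 of 8 arrays. Of the double-positive markers Rag1, Cd8a, Cd8b1, Cd4, Ptcra, Rag2, Arpp21, Cd24a and Dntt, all 9 were past the dim limit and the last 4 were lower on deficient arrays. The calls of Cd24a and Dntt ended in 6 of the 8 fits without 1 array (all but those without sufficient replicate 2 or deficient replicate 4), with median centring, with no dim filter and with no variance trend, which left Rag2 and Arpp21. The call of Dntt also ended with the mean of probe sets. With the Xist class in the model 0 of the 9 were called. The summed signal of the 9 was 62958 to 66603 on sufficient and 54177 to 59094 on deficient arrays. Double-negative markers were higher in 2 of 5 tested genes, Il2ra and Notch1 (summed signal 1016 to 1773 and 2177 to 3728). Cd44 of that list differed by -0.22, Kit by 0.40 and Hes1 by 0.59, none of them called. Kit and Hes1 had sufficient means of 34.8 and 36.4, near the dim limit. Mature single-positive markers were higher in 3 of 4, Ccr7, Itgb7 and Klf2 (259.5 to 514.8 and 1377 to 2513). For comparison, 5.89% of all tested genes were called higher and 4.08% lower. Of macrophage and dendritic cell markers 1 of 6 was higher, Ctss (summed signal of the list 384.5 to 747.3 and 681.5 to 863.7). The calls of Notch1 and Ctss each ended in 5 of the 8 fits without 1 array. They also ended with no dim filter and with no variance trend, and that of Notch1 with the mean of probe sets. The calls of Il2ra and the 3 single-positive markers ended in 0 of the 8 fits. Of the erythroid list Car2 alone was higher (216.6 and 1069 as group means), while the globin gene Hba-a2 had a log2 difference of -0.12 (102 and 92.9). With the Xist class in the model Ccr7 was the only gene called in all these marker lists. The B cell, stroma and granulocyte lists had 0 calls among 2, 3 and 1 tested genes in limma, with 1, 2 and 1 at an unadjusted p under 0.05, though Ighm was called higher with array weights and without probe sets ending in _x_at or _s_at. Summed signals were 7114 to 7348 and 7626 to 8573 for B cells, 789.3 to 854.6 and 536.9 to 790.8 for stroma, and 45.4 to 85.8 and 65.2 to 163.6 for granulocytes. Most of the B cell sum came from 1 gene, Ighm (6579 to 6881 and 7106 to 8078). Most of the stroma sum came from Pecam1 (651.1 to 711.8 and 387.4 to 646.9). Cd79a, Foxn1, Col1a1, Hba-a1, Mpo and Elane stayed at or below the dim limit on every array. In such bulk samples, fewer cells of a type and less RNA per cell cannot be told apart. The part of the Xist difference and of these marker shifts in the results that follow was not tested beyond the values given with them.

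Promoter sequence was available for 5 of the 6 members. That of Myb is shown because Myb is the targeted gene, that of Mybbp1a because it was the other member called, and that of Rag2, a recombinase gene, because it was the single reported c-Myb target called among those tested. Each run is the 250 bases before the gene start in RefSeq on GRCm38.p6, 5′ to 3′ on the strand of the gene. Capitals mark the Myb recognition cores TAACNG and CAACNG and the GC box GGGCGG, on either strand.
Myb, chr10:21160985-21161234, minus strand: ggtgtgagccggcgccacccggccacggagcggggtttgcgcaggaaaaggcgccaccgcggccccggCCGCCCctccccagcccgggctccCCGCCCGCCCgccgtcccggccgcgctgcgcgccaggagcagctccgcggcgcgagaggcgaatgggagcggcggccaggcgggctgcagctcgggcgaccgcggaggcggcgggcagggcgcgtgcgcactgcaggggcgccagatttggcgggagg
Mybbp1a, chr11:72441077-72441326, plus strand: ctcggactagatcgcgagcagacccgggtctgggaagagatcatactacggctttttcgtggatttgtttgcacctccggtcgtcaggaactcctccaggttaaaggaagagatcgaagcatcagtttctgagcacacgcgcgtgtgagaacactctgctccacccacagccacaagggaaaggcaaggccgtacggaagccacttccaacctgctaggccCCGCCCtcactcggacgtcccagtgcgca
Rag2, chr2:101624462-101624711, plus strand: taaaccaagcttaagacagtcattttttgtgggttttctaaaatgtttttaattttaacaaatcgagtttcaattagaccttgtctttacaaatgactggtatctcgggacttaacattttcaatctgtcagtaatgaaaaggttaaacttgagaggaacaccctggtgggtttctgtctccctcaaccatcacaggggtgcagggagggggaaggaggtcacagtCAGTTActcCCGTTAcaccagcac

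The Myb promoter was 81.2% G and C and held 3 GC boxes, 2 of them overlapping, and neither Myb core. That of Mybbp1a held 1 GC box and neither core. The Rag2 promoter held TAACNG 2 times, 24 and 15 bases before the start, both on the opposite strand. Among the other members, the same window of Mybl2 held 1 TAACNG and 4 GC boxes, Crebbp 2 GC boxes and Ep300 1. Of all 32851 promoters in the table, 19.8% held TAACNG, 29.3% CAACNG, 43.1% either core, 2.84% TAACNG at least 2 times, and 32.7% a GC box. These matches describe letters in the windows and do not show that a factor binds there.

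**Figure D1:**
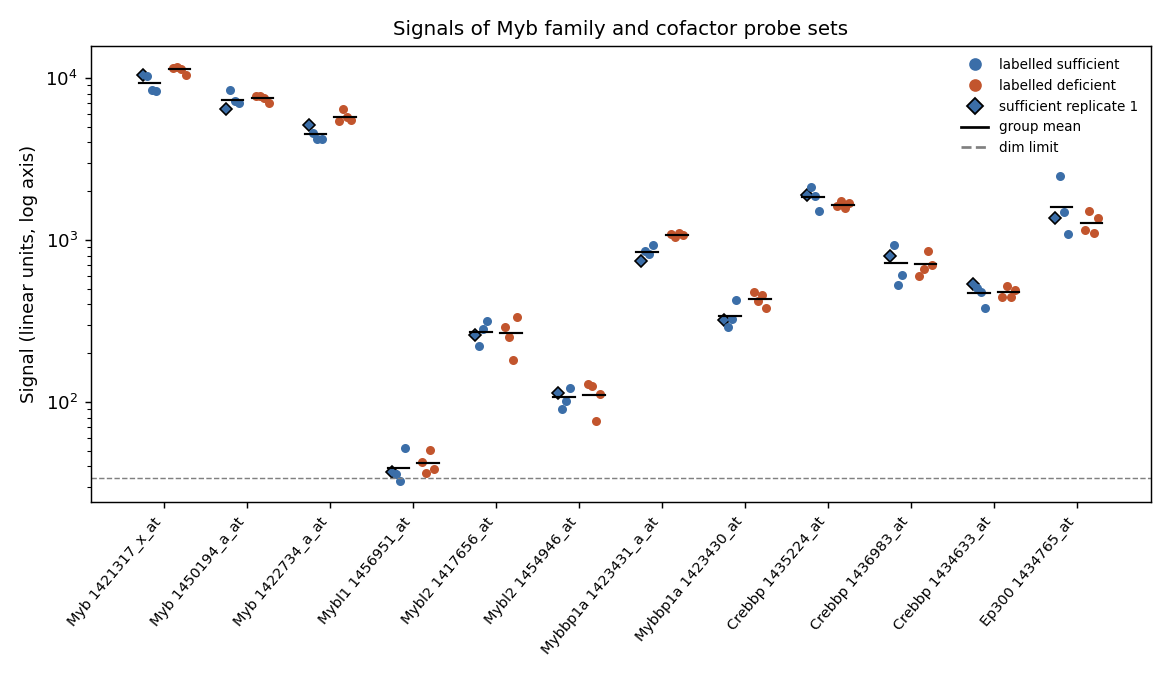
Signal of the 12 member probe sets past the dim limit on each array (log axis), with labelled sufficient arrays in blue, labelled deficient arrays in orange, the mean of each group as a black bar and sufficient replicate 1 as a diamond. Myb reads between 4183 and 11754 in both groups, Crebbp and Ep300 between 379.4 and 2467.9, Mybl2 between 76.1 and 335.0, and Mybl1 lies at the dim limit (dashed).

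Myb, the targeted gene, gave strong signals on all 8 arrays and was not lower on the arrays labelled deficient. On probe set 1422734_a_at it read 5158.2, 4548.2, 4183.2 and 4184.3 on sufficient replicates 1 to 4 and 5458.0, 6395.8, 5728.8 and 5525.2 on deficient replicates 1 to 4. All 4 deficient arrays lay above all 4 sufficient ones, and the closest pair was sufficient replicate 1 and deficient replicate 1. The log2 difference was 0.36 ± 0.08 (SE; n = 4 each; 95% interval 0.17 to 0.54), a 1.28-fold higher level that passed limma's test over 22599 probe sets (adjusted p = 0.0327). On the brightest probe set, 1421317_x_at, the sufficient arrays read 10387.9, 10329.9, 8405.4 and 8326.5 and the deficient arrays 11530.2, 11754.0, 11365.9 and 10511.9. Sufficient replicates 1 and 2 lay just under the lowest deficient array, replicate 4, and sufficient replicates 3 and 4 well under it. The difference there was 0.28 ± 0.08 (95% interval 0.09 to 0.46), which did not pass (limma adjusted p = 0.0845). The two-sided exact permutation p of both probe sets was 0.0286, the smallest that 70 labellings can give.

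The remaining Myb probe set gave another picture. On 1450194_a_at the sufficient arrays read 6456.6, 8464.2, 7230.3 and 7022.4 and the deficient arrays 7706.3, 7707.1, 7485.6 and 7020.7. The groups overlapped fully, with the highest and the lowest of the 8 values both on sufficient arrays. The difference was 0.04 ± 0.08 (95% interval -0.14 to 0.22, limma adjusted p = 0.816, two-sided exact permutation p = 0.714). The sources used here do not say which exons these probes read or where the floxed part of Myb lies. A deletion is not checked by probes outside it, so the Myb signals do not settle whether titles or source names are right.

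Whether the Myb probe sets changed unequally was tested on their ratio within each array. The log2 ratio of 1421317_x_at to 1450194_a_at was 0.68, 0.29, 0.22 and 0.25 on sufficient replicates 1 to 4 and 0.58, 0.61, 0.60 and 0.58 on the deficient arrays. Sufficient replicate 1 lay above every deficient array and apart from the other 3 sufficient arrays. The groups differed by 0.23 (two-sided exact permutation p = 0.143, adjusted p = 0.429 over 6 within-gene pairs). A pair added after the values were seen, 1422734_a_at to 1450194_a_at, ran the same way, at -0.32, -0.89, -0.79 and -0.74 on sufficient and -0.50, -0.27, -0.38 and -0.34 on deficient arrays (two-sided exact permutation p = 0.114). On both ratios the 5 arrays with high Xist (0.58 to 0.68 and -0.50 to -0.27) did not overlap the 3 with low Xist (0.22 to 0.29 and -0.89 to -0.74). Both ratios share 1450194_a_at, so they are not independent. How many other probe set pairs split by Xist level in this way was not counted. The part of the Xist level in these ratios was not tested. Between 1421317_x_at and 1422734_a_at the group difference in ratio was -0.08 (two-sided exact permutation p = 0.257, adjusted p = 0.514).

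**Figure D2:**
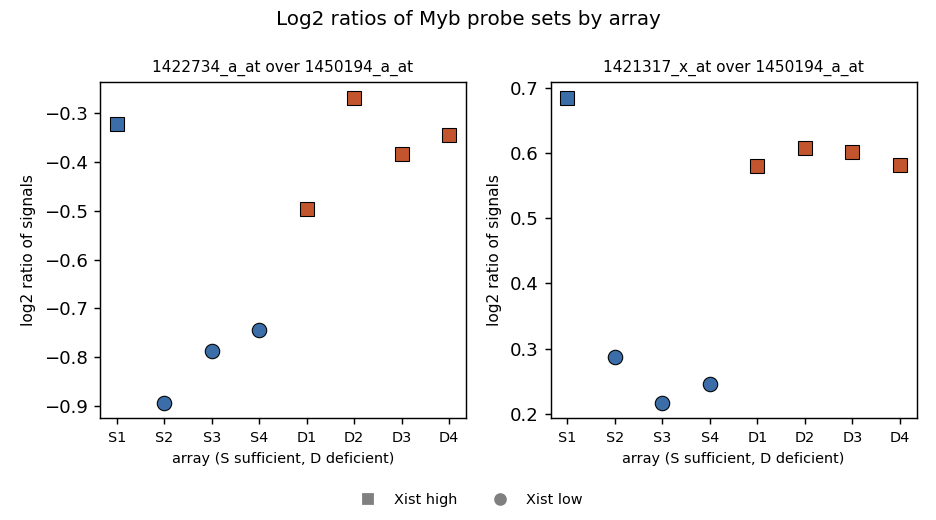
Log2 ratio of signals of Myb probe set pairs on each array (S1 to S4 labelled sufficient in blue, D1 to D4 labelled deficient in orange), with squares for arrays of high and circles for arrays of low Xist. Sufficient replicate 1, the one sufficient array with high Xist, sits with or above the deficient arrays at -0.32 and 0.68, while sufficient replicates 2 to 4 lie at -0.89 to -0.74 and 0.22 to 0.29.

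With the Xist class in the model, where sufficient replicate 1 alone stands for its group, the Myb difference went to 0.16 on 1422734_a_at (limma adjusted p = 0.819), 0.12 on 1421317_x_at and 0.21 on 1450194_a_at. Without sufficient replicate 1 it was 0.42 on 1422734_a_at (limma adjusted p = 0.0174). The call on 1422734_a_at was kept in 2 of the 8 fits that left out 1 array, with differences of 0.31 to 0.42 and adjusted p of 0.0174 to 0.114 in limma. It ended when sufficient replicate 2, 3 or 4 was left out (adjusted p = 0.0555, 0.114 and 0.0821 in turn), or deficient replicate 1, 2 or 3 (0.0586, 0.109 and 0.0787). The call also ended with quantile normalization (0.0643), median centring (0.0659), no dim filter (0.07) and no variance trend (0.107).

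Mybl1 was close to the background. Its probe set 1456951_at read 37.0, 35.7, 32.4 and 51.9 on sufficient and 42.6, 36.6, 50.3 and 38.3 on deficient arrays, above the dim limit on 7 of 8. Both groups spanned nearly the same narrow range. The log2 difference was 0.08 (95% interval -0.32 to 0.47, limma adjusted p = 0.856). The other probe set, 1450481_at, stayed between 1.6 and 21.7 and was below the limit on all 8 arrays, so it has no fold.

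Mybl2 was clearly measured and showed no group difference beyond its spread. On 1417656_at the sufficient arrays read 260.5, 222.5, 282.9 and 315.7 and the deficient arrays 292.0, 250.3, 181.8 and 335.0. The lowest and the highest arrays were both deficient, replicates 3 and 4. The log2 difference was -0.05 (95% interval -0.45 to 0.35, limma adjusted p = 0.908), and on 1454946_at, where deficient replicate 3 was again the lowest at 76.1, it was 0.03 (95% interval -0.36 to 0.42). Neither sign held in every fit without 1 array: 1417656_at reached 0.11 without deficient replicate 3, and 1454946_at was -0.04 without deficient replicate 1.

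Mybbp1a was higher on deficient arrays. On 1423431_a_at it read 746.7, 854.1, 820.1 and 928.1 on sufficient and 1096.1, 1036.3, 1101.1 and 1067.2 on deficient arrays. The deficient values were close to one another (2.78% of their mean as SD) and all lay above the highest sufficient array, replicate 4. The log2 difference was 0.36 ± 0.09 (SE; n = 4 each; 95% interval 0.16 to 0.56), a 1.28-fold rise (limma adjusted p = 0.0437, two-sided exact permutation p = 0.0286). On 1423430_at the sufficient arrays read 318.7, 290.4, 323.6 and 427.6 and the deficient arrays 480.1, 419.8, 457.7 and 381.5. Sufficient replicate 4 lay inside the deficient range, and the difference of 0.35 ± 0.14 did not pass (95% interval 0.05 to 0.65, limma adjusted p = 0.172). Within arrays, the log2 ratio of the first to the second probe set differed by 0.01 between the groups (two-sided exact permutation p = 0.943).

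With the Xist class in the model the Mybbp1a difference was 0.52 on 1423431_a_at (limma adjusted p = 0.254) and 0.42 on 1423430_at (0.718). Its call was kept in 1 of 8 fits without 1 array, that without sufficient replicate 4 (adjusted p = 0.0387), with differences of 0.31 to 0.41 over the 8. It ended when sufficient replicate 1, 2 or 3 was left out (limma adjusted p = 0.104, 0.0602 and 0.132 in turn), or any deficient array (0.0568 to 0.112). Median centring (0.148), no dim filter (0.0652) and no variance trend (0.0795) ended it too.

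The coactivator genes did not pass the test. Crebbp on its brightest probe set, 1435224_at, read 1882.9, 2119.7, 1861.4 and 1503.3 on sufficient and 1611.1, 1742.2, 1569.0 and 1700.8 on deficient arrays. Sufficient replicates 1 to 3 lay above every deficient array, and replicate 4 lay under all of them. The log2 difference was -0.14 ± 0.10 (95% interval -0.37 to 0.09, limma adjusted p = 0.487), and it ranged from -0.24 without sufficient replicate 4 to -0.07 without sufficient replicate 2. Probe sets 1436983_at (526.3 to 935.3 on sufficient, 599.5 to 858.9 on deficient arrays) and 1434633_at (379.4 to 533.8 and 441.8 to 520.1) differed by 0.00 and 0.01, with 95% intervals of -0.39 to 0.39 and -0.26 to 0.29. The sign of both changed with median centring (-0.03 and -0.02). The log2 ratio of 1435224_at to 1434633_at was 0.15 lower on deficient arrays (-0.15, two-sided exact permutation p = 0.0857, adjusted p = 0.429). The fourth probe set, 1459804_at, read 0.8 to 19.0.

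Ep300 has a single probe set, 1434765_at. It read 1375.8, 2467.9, 1480.9 and 1092.9 on sufficient and 1149.8, 1503.6, 1103.8 and 1368.8 on deficient arrays. Sufficient replicate 2 was far above the other 7 arrays, which overlapped, and the same array had the highest signal on 2 of the Crebbp probe sets, 1435224_at and 1436983_at. The difference was -0.27 ± 0.21 (95% interval -0.73 to 0.20, limma adjusted p = 0.529), -0.04 without sufficient replicate 2 (limma adjusted p = 0.9) and -0.43 without sufficient replicate 4 (0.285).

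**Figure D3:**
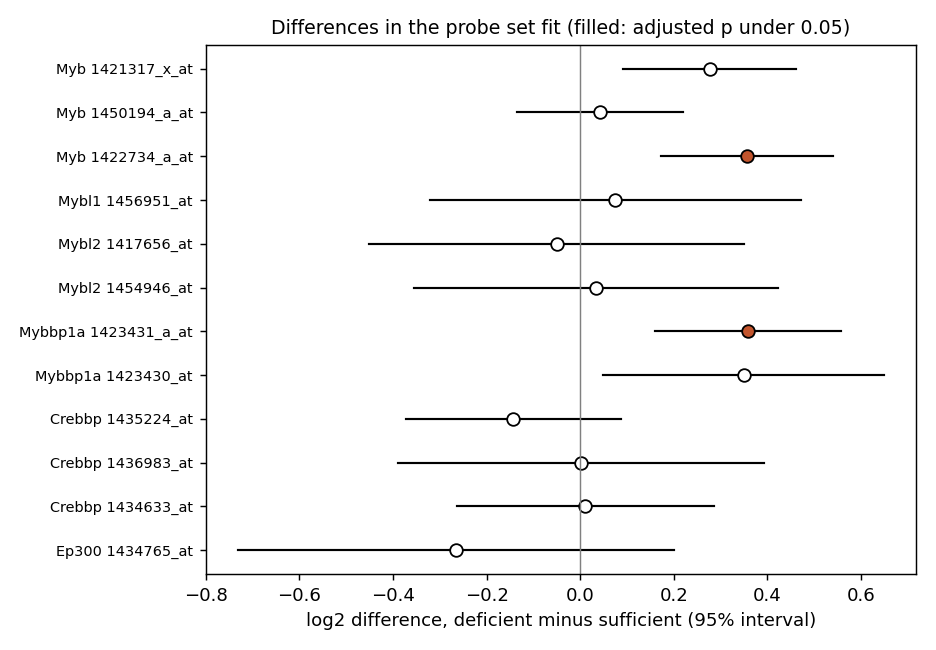
Log2 difference (deficient minus sufficient) of the 12 tested member probe sets with its 95% interval from the limma fit over all probe sets, filled where the adjusted p was under 0.05. The filled points are Myb 1422734_a_at and Mybbp1a 1423431_a_at, both at 0.36, and the intervals of Mybl1, Mybl2, Crebbp and Ep300 include 0.

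Of the 12 tested member probe sets 2 were called, both higher, against 5.82% of all 22599 probe sets called in either direction and 3.14% called higher. The groups did not overlap for 3 of the 12 member probe sets (2 of Myb and 1 of Mybbp1a), against 14.3% of all probe sets. With 1 probe set a gene, 1 of the 6 members was called, Mybbp1a (limma adjusted p = 0.0257 over 9941 genes), while Myb had 0.0619, and 9.98% of genes were called. The number of called member probe sets was 0 with the Xist class in the model, where 8 of 22599 probe sets were called in all. It was 1 without sufficient replicate 1 (Myb 1422734_a_at), 3 with array weights, and between 0 and 2 under the other alternatives.

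**Figure D4:**
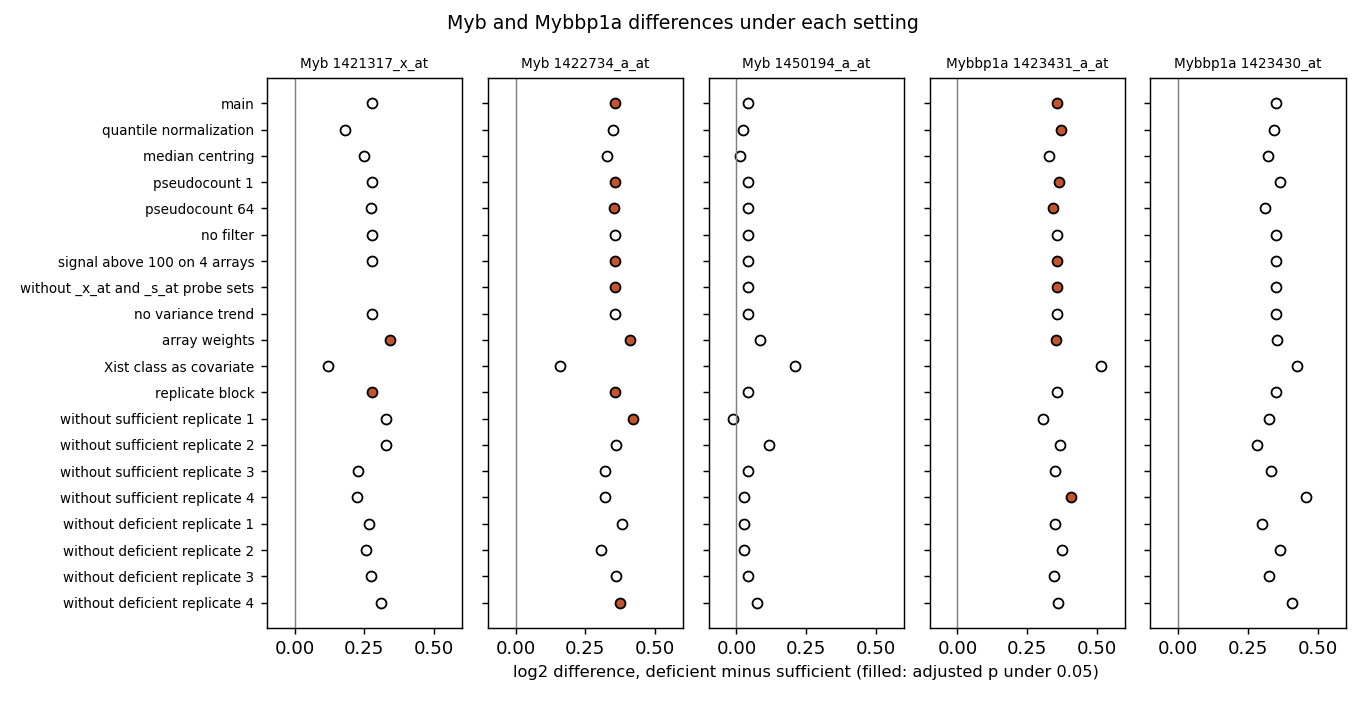
Log2 difference of the Myb probe sets and the Mybbp1a probe sets (columns) in the main fit and under each alternative (rows), filled where the limma adjusted p was under 0.05. Every difference plotted for Myb 1422734_a_at (0.16 to 0.42) and both Mybbp1a probe sets (0.28 to 0.52) lies above 0, while Myb 1450194_a_at falls to -0.01 without sufficient replicate 1.

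Of genes reported as c-Myb targets, 1 of 10 tested was lower and 0 higher, where 4.08% of all genes were called lower and 5.89% higher. At an unadjusted p under 0.05 there were 6 of the 10, and 2492 of all 9941 genes. Myc, the proto-oncogene, was called higher without deficient replicate 4 and with array weights (0.39 in the fit of all arrays, limma adjusted p = 0.134), and Bcl2l1, a survival gene, lower with array weights. Rag2, whose promoter is printed above, read 4240.3, 3987.2, 4104.2 and 3979.6 on sufficient and 3168.5, 2737.5, 3126.7 and 3266.4 on deficient arrays. The groups were far apart, and the log2 difference was -0.41 ± 0.07 (limma adjusted p = 0.00557). It was called in all 8 fits without 1 array, and was -0.46 with the Xist class in the model (limma adjusted p = 0.162). The median of the list was -0.08 (-0.0045 without sufficient replicate 2), beside 0.02 over all 9941 genes. Its other members ranged from -0.33 for Ada, the adenosine deaminase gene, to 0.67 for Ccnd2, a cyclin gene of the early cell cycle. Ccnd2 read 60.1 to 129.5 on sufficient arrays, 282.5 on deficient replicate 3 and 118.9 to 134.5 on the other deficient arrays. The groups of Ccnd2 thus overlapped (limma adjusted p = 0.169). Rag1, Rag2 and Cd4 of this list are also double-positive markers, of which 4 of 9 were lower, and 2 of 9 in 6 of 8 fits without 1 array, as given above.

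Around Mybl2, the 12 tested genes of the MuvB and DREAM complexes, which hold the cell cycle genes in check or activate them with B-Myb, all had negative differences, and 0 were called (limma, 1 at an unadjusted p under 0.05). Their median was -0.18, and 46.6% of all genes had negative differences. The median was -0.09 without deficient replicate 3 and -0.27 without deficient replicate 4. Tfdp2, a dimerization partner of E2F factors, was called lower without sufficient replicate 4 and with median centring, and the kinase gene Dyrk1a with the mean of probe sets. Rbbp4, the brightest, a histone-binding subunit, read 6919 ± 639 and 6421 ± 801 (SD, n = 4 each; log2 -0.11, limma adjusted p = 0.523). Its difference was -0.40 without probe sets ending in _x_at or _s_at (0.112), -0.0016 with the Xist class in the model, and -0.19 to -0.06 without 1 array. The widest difference was that of the E2F factor gene E2f5, which was picked after its values were seen, at -1.12 (limma adjusted p = 0.295). It rested on deficient replicate 4, which read 6.2, under the dim limit, while the other deficient arrays read 168.7 to 206.4 and the sufficient arrays 166.8 to 348.0. Without that array it was -0.32. In the fits without 1 array 10 or 11 of the 12 were negative, and with the Xist class in the model 10. Of 17 mitotic genes on which B-Myb and MuvB act, 0 were called (0 at an unadjusted p under 0.05), with a median of -0.12 and differences of -0.24 to 0.10. Without 1 array that median ranged from -0.25 (without sufficient replicate 2) to 0.07 (without deficient replicate 3). It was 0.01 without sufficient replicate 4 and -0.20 without deficient replicate 4. Top2a, the topoisomerase of dividing cells and the brightest of them, read 6493 ± 713 and 6417 ± 1115 (log2 -0.03, limma adjusted p = 0.922). The Top2a difference was 0.05 with the mean of its probe sets. The lowest Top2a array, at 4854.9, was deficient replicate 3, as for Mybl2.

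Partners and modifiers of c-Myb had 0 calls among 14 tested genes (limma, 4 at an unadjusted p under 0.05) and a median of -0.15. The count of 0 did not hold throughout. Without deficient replicate 4, 3 were called lower (Hipk1, Ski and Ets1), with the mean of probe sets 3 (Hipk1, Sin3a and Ets1), with quantile normalization 1 (Hipk1), and with array weights 3 lower (Hipk1, Sin3a and Ets1) and 1 higher (Nlk). Hipk1 and Nlk encode kinases, Ski and Sin3a corepressors, and Ets1 an Ets factor. The brightest was Ets2, a factor of the Ets family, at 7701 ± 895 and 8232 ± 583 (log2 0.10, limma adjusted p = 0.535, and -0.06 with the Xist class in the model). Acetyltransferases and readers of acetyl-lysine other than Crebbp and Ep300 had 0 calls among 12 (1 at an unadjusted p under 0.05) and a median of -0.01, whose sign varied over the fits without 1 array (-0.06 to 0.01). Ncoa1, a nuclear receptor coactivator, was called lower without deficient replicate 4. Their brightest gene, the bromodomain gene Brd2, differed by 0.05 (limma adjusted p = 0.748).

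Among 12 tested factors that bring Crebbp and Ep300 to DNA, 1 was higher and 1 lower, beside 5.89% and 4.08% of all genes. At an unadjusted limma p under 0.05 there were 5 of the 12, and 2492 of all 9941 genes. The list median was -0.12 (-0.07 without sufficient replicate 1). Creb1, the CREB gene, was also called lower without deficient replicate 4, with array weights and with the mean of probe sets, the last with Hif1a. Crtc3, a coactivator of CREB, read 854.4, 828.9, 715.2 and 588.6 on sufficient and 1073.6, 1154.8, 1294.8 and 1025.9 on deficient arrays. The groups did not overlap, and it rose by 0.61 ± 0.13 (limma adjusted p = 0.0126), a call kept in all 8 fits without 1 array. With the Xist class in the model it differed by 0.40 (limma adjusted p = 0.529). Stat2, a factor of interferon signalling, fell by 0.44 ± 0.12 (307 ± 33.2 to 223 ± 30.4, limma adjusted p = 0.0484). That call was kept in 1 of 8 such fits, that without sufficient replicate 1, with adjusted p of 0.0431 to 0.123. It ended with median centring (0.0534), no dim filter (0.0922), no variance trend (0.0561) and array weights (0.05), and the difference was -0.23 with the Xist class (limma adjusted p = 0.75).

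Among 15 tested partners of Mybbp1a and RNA polymerase I genes, 1 was higher and 0 lower, where 5.89% and 4.08% of all genes were. An unadjusted limma p under 0.05 was found for 5 of the 15, and for 2492 of all 9941 genes. The list median was 0.03 (-0.0031 without deficient replicate 4). Npm1, the nucleolar chaperone nucleophosmin, read 7054.0, 6501.5, 7485.7 and 8468.2 on sufficient and 8842.2, 8710.1, 8934.6 and 8880.0 on deficient arrays. As on Mybbp1a 1423431_a_at, sufficient replicate 4 was the highest of its group and the deficient arrays were tightly grouped above it. On Mybbp1a 1423430_at that sufficient array (427.6) lay inside the deficient range (381.5 to 480.1). Npm1 rose by 0.27 ± 0.08 (limma adjusted p = 0.0491), but was called in 1 of 8 fits without 1 array, that without sufficient replicate 4 (adjusted p 0.0118 to 0.115), and not with the Xist class (0.33, limma adjusted p = 0.387). Its call also ended with quantile normalization (0.0631), median centring (0.248), a pseudocount of 1 (0.0501), no dim filter (0.131), no variance trend (0.124) and without probe sets ending in _x_at or _s_at (0.0519). Ncl, the nucleolin gene, was called higher too without sufficient replicate 4 and with array weights. Without deficient replicate 4 and with array weights, Polr1b, a polymerase I subunit gene, was called higher and Myo1c, a nuclear myosin gene, lower.

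**Figure D5:**
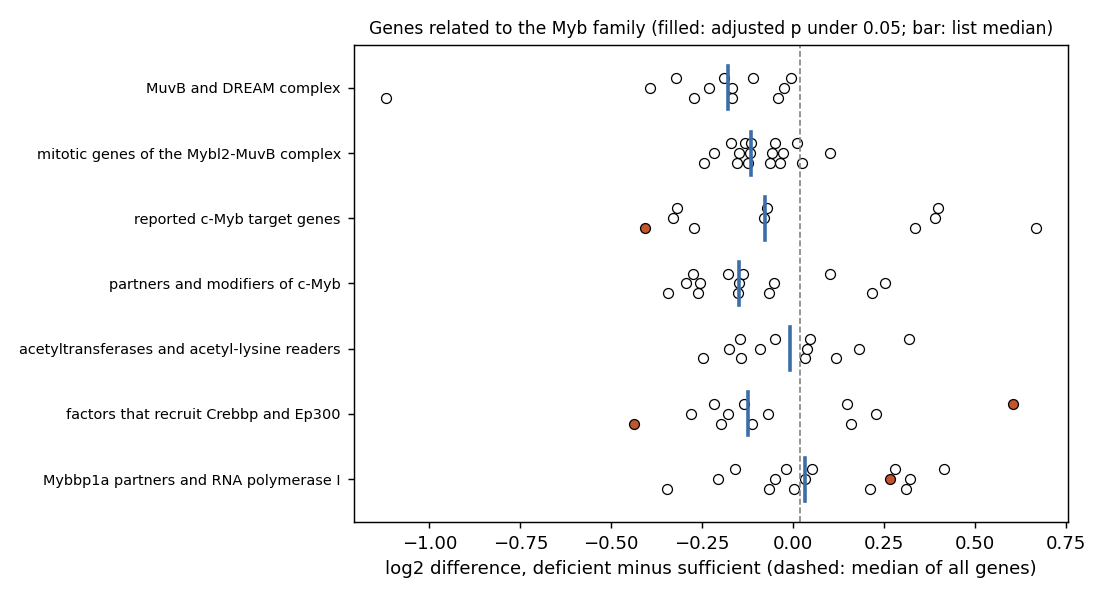
Log2 difference (deficient minus sufficient) of every tested gene in the 7 lists related to the Myb family, filled where the limma adjusted p was under 0.05, with the list median as a blue bar and the median of all genes (0.02) dashed. Filled points are Rag2 (-0.41), Crtc3 (0.61), Stat2 (-0.44) and Npm1 (0.27), and all points of the MuvB and DREAM list lie below 0.

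The genes whose signals followed the brightest Myb probe set most closely over the 8 arrays, after the mean of each group was taken out, were Prkcq, Man2b2, Atxn1, Gm30054 and Itgb2, with Pearson correlations of 0.995, 0.993, 0.983, 0.981 and 0.980. Over the arrays as they stood, the correlations were 0.995, 0.872, 0.933, 0.503 and 0.951. They are the highest among 9941 genes, each value shares its array with Myb, and no test is attached to them. Prkcq, which encodes protein kinase C theta of T-cell receptor signalling, read 1792.7, 1760.6, 1269.0 and 1239.1 on sufficient and 2156.2, 2264.0, 2135.5 and 1954.8 on deficient arrays. Prkcq was picked for following Myb 1421317_x_at, so a shared pattern is given by the choice. On both, sufficient replicates 1 and 2 were higher than 3 and 4, and deficient replicate 4 was the lowest of its group. Prkcq rose by 0.50 (limma adjusted p = 0.0316), was called in 3 of 8 fits without 1 array (adjusted p 0.0193 to 0.102), and differed by 0.24 with the Xist class in the model (limma adjusted p = 0.733).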

How the data were processed

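The values deposited are linear intensities, 1 for each probe set on each array. The submitters' processing notes name GCOS, with a version not given in the sources used here. A common trimmed mean shows that arrays had been scaled, which removes differences in total RNA. The number of arrays limits the precision. Intensities were converted to log2(signal + 16), so fold changes of dim genes are understated. Of 45101 probe sets, 64 controls were left out; 34945 had 1 gene symbol, 932 several and 9160 none, and 34741 were matched to the RefSeq gene table (GRCm38.p6) for current symbols. Differences were tested in limma 3.58.1 (R 4.3.3; lmFit, eBayes with a variance trend, two-sided, Benjamini-Hochberg, threshold 0.05) over 22599 probe sets, and for gene lists over 9941 genes, each by its brightest probe set past the dim limit. Exact permutation tests used all 70 labellings. The Xist class was split at a signal of 1000. The method was tested on simulated data, with 50 changed probe sets or genes for each size of change. When signals differed by a factor of 1.25, the probe set test called 4% of them and the gene test 10%. These shares were 26% and 44% for a factor of 1.5, and 66% and 74% for a factor of 2. False calls were 7 of 100 calls in the probe set test and 6 of 119 calls in the gene test. Small changes were thus mostly missed in the simulation. It changed fewer probe sets and genes than the 1316 and 992 called in the data, so its shares may not hold for the data. The lack of a call does not show that a gene was unchanged. Figures were drawn with matplotlib 3.10.9 and promoters searched with pandas 2.3.3 under Python 3.11.15.

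The members, lists, tests and alternatives were chosen with earlier results of these data known. Named genes were all members and Xist, up to 3 called genes of each related list with the largest difference (or its brightest gene), and the 5 genes most like Myb. The labels call the arrays biological replicates. Alternatives changed the scaling, pseudocount (1, 64), dim filter (none, above 100), probe sets, variance model and threshold, weighted the arrays, put the Xist class or replicate number in the model, or left out each array. Scan batches were not tested.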

Additional observations from a re-analysis of the deposited data

Results flagged for a closer look

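In 5 of 68 groups of 4 values the gap between 1 array and its nearest neighbour was over Dixon's critical value, a rule set to mark about 1 in 20 groups by chance. The 68 groups share arrays and genes, so they are not independent and the count was not tested. Xist read 4358.5 on sufficient replicate 1 and 23.4 to 36.7 on the other sufficient arrays. The log2 ratio of the Myb probe sets 1421317_x_at and 1450194_a_at was 0.68 on the same array and 0.22 to 0.29 on the other 3. The log2 ratio of 1421317_x_at to 1422734_a_at was 1.18 on sufficient replicate 2 and 0.99 to 1.01 on the rest of its group. On deficient replicate 4, Man2b2 read 53.6 (80.3 to 82.0 on the other deficient arrays) and Itgb2 3007.2 (3321.2 to 3348.2).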

How the results depend on the processing

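The count of changed probe sets was 1316 and that of changed genes 992. The counts were 2631 and 1745 with array weights, 8 and 26 with the Xist class as a covariate, and 427 and 371 at an adjusted p threshold of 0.01. Without 1 array they ranged from 561 to 1493 and from 494 to 1195, lowest without sufficient replicate 3. The other alternatives moved neither count by over 1.5 times.

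The sign of small differences changed with quantile normalization for Mybl2 1454946_at (-0.0080), with median centring for Crebbp 1436983_at (-0.027) and 1434633_at (-0.017), with a pseudocount of 64 for Crebbp 1436983_at (-0.00011), with the mean of probe sets for Top2a (0.050) and with array weights for Gm30054 (0.12). With the Xist class it changed for Mybl2 1454946_at (-0.048), Crebbp 1436983_at (-0.18) and 1434633_at (-0.17), Ets2 (-0.062) and Man2b2 (-0.22). None of these was called in any of those fits, and the cause was not tested. Without 1 array the differences ranged from -0.014 to 0.12 for Myb 1450194_a_at, -0.17 to 0.11 for Mybl2 1417656_at, -0.040 to 0.18 for Mybl2 1454946_at, -0.13 to 0.14 for Crebbp 1436983_at, -0.088 to 0.071 for Crebbp 1434633_at, -0.10 to 0.099 for Top2a and -0.36 to 0.079 for Gm30054.

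Replicate numbers are shared by the groups but did not pair the arrays: deviations from the group means correlated at -0.15, 0.18, -0.37 and 0.33 for the same-numbered pairs, and 1 of 8 arrays correlated best with its own number. With the replicate block 1081 probe sets and 1035 genes were called, Myb 1421317_x_at passed (limma adjusted p = 0.0488) and Mybbp1a 1423431_a_at (0.0854) and Stat2 (0.0698) did not. With the block Myc and Ncl were also called higher and Tfdp2 lower. The numbers of member probe sets at the smallest exact p (3) and of within-gene contrasts past the threshold (0, with 0 also at an unadjusted p under 0.05) were the same with pseudocounts of 1 and 64.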
